A study of Homo sapiens with 8 samples.

Results

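The 10 genes described here are the receptors that pair with gp130, the transcription factor STAT3 and the feedback inhibitors of the SOCS family, namely IL6ST, LIFR, CNTFR, IL6R, OSMR, STAT3, SOCS1, SOCS2, SOCS3 and CISH. They were taken by symbol, and the choice of this family was made with earlier results of these data known, from the 60676 Ensembl genes of the count matrix, and all 10 passed the filter on low counts that left 16680 genes for testing. They were measured by RNA-seq in aggregates of IGR-N91, a human neuroblastoma (NB) cell line, in 4 groups of 2 libraries. Control aggregates were kept in medium that had met no tissue. The other groups were exposed to medium conditioned by sympathetic ganglia of embryonic day 8 chick (E8-cSGcm), by dorsal root ganglia of embryonic day 8 chick (E8-cDRGcm) or by sympathetic ganglia of E15.5 mouse embryos (E15.5-mSGcm), and were collected after 20 h by the labels and methods, or 24 h by the design text of the series. All groups were 1 cell line in serum-containing medium, so each value stands for that line alone.

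gp130, encoded by IL6ST, is the signalling chain shared by the interleukin-6 family of cytokines. It pairs with LIFR or OSMR as a second signalling chain, and ligand-binding chains such as IL6R and CNTFR decide which cytokine a cell can sense. The complex activates JAK kinases, which phosphorylate STAT3, and STAT3 in turn induces SOCS3, which binds gp130 and shuts the signal down. SOCS1, SOCS2 and CISH are inhibitors of the same fold, with CISH and SOCS2 known best as targets of STAT5. In sympathetic neurons, ligands of this family are known for turning noradrenergic features down and some, but not all, neuropeptides up.

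Libraries held 7930765 to 15060744 counts, and both E15.5-mSGcm libraries were the smallest. A floor of 3 counts equalled 0.199 to 0.378 CPM, the unit in which counts are scaled to libraries of equal size. This floor allows for counting error alone, because PCR copies of a molecule were not marked by identifiers. The spread between replicate libraries exceeded counting error (chi-square per gene from 1.87 to 3.95). The methods speak of duplicates of each condition and of distinct samples, without saying whether these were separate cultures, so p-values measure the spread between these libraries, which may be technical. The 7 noradrenergic NB markers all had counts, and their summed level was 2483 to 2568 CPM in control, 2101 to 2245 in E8-cSGcm, 1901 to 1963 in E8-cDRGcm and 1793 to 1833 in E15.5-mSGcm. The 7 fibroblast markers also had counts in control medium (417 to 428 CPM) and summed to 435 to 464 CPM in the chick media and 477 to 487 CPM in E15.5-mSGcm. That sum held opposite changes in E15.5-mSGcm, where PDGFRA (log2 3.65), DCN (2.30), COL1A2 (2.01) and LUM (0.93) rose and COL1A1 (-1.82) fell, all called by the edgeR test used throughout. Glial markers summed to 1.12 to 1.45 CPM in control and to at most 4.10 CPM in a conditioned medium, with SOX10 and FOXD3 among those at 0. Endothelial markers (3 of 4 matched, CDH5 at 0) reached at most 1.61 CPM and immune markers (CD3E and TYROBP among those at 0) at most 0.769 CPM. The part of these marker shifts in the results below was not tested, and in bulk RNA fewer cells of a type and less RNA per cell cannot be told apart.

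Levels are given below as CPM after normalisation between libraries, and levels of different genes are compared per kilobase of exons. In control medium the chains for LIF-type and CNTF-type ligands stood highest, with 28.7 ± 0.423 CPM per kb for CNTFR (SD, n = 2), 20.2 ± 0.664 for LIFR and 12.1 ± 0.0362 for IL6ST. STAT3 followed at 6.44 ± 0.315 CPM per kb. CISH stood at 1.34 ± 0.204, SOCS1 at 0.615 ± 0.0375, SOCS2 at 0.479 ± 0.174, OSMR at 0.306 ± 0.00466, SOCS3 at 0.224 ± 0.0787 and IL6R at 0.137 ± 0.00742 CPM per kb. SOCS2 lay within about its own SD of SOCS1 and OSMR, and SOCS3 within about its own SD of OSMR and IL6R. In E15.5-mSGcm the order at the top changed, and LIFR, at 38.4 ± 2.13 CPM per kb, stood above CNTFR at 21.6 ± 0.861 and IL6ST at 17.0 ± 0.322. In E8-cDRGcm, LIFR (17.7 ± 0.794) and CNTFR (18.0 ± 0.364) were closer than their SDs.

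**Figure D1:**
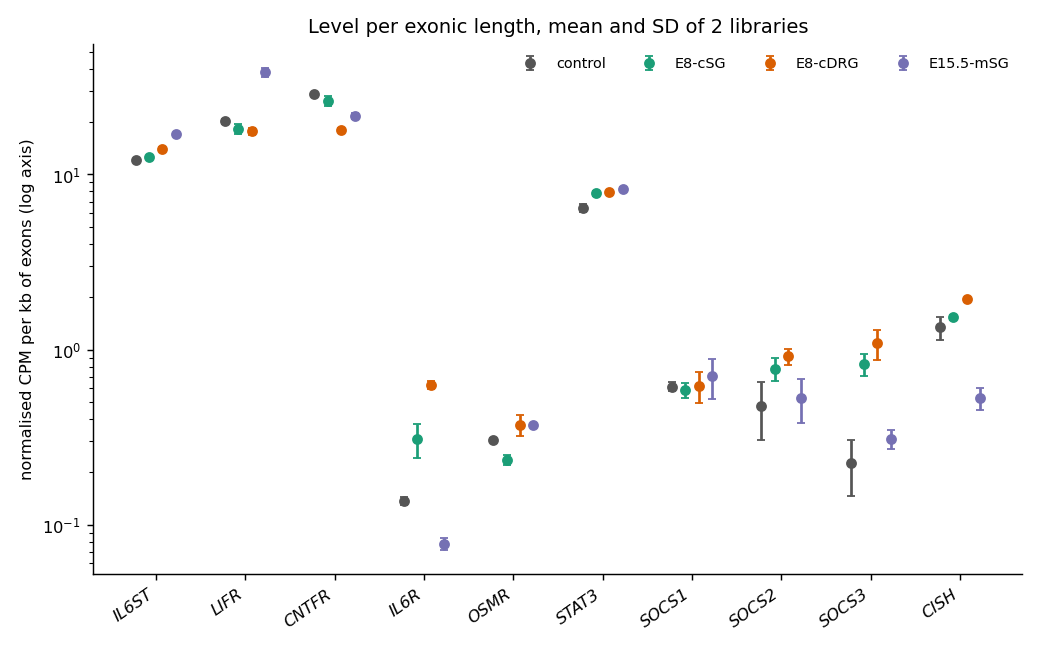
Normalised CPM per kb of exons of the 10 genes on a log axis, as mean (point) and SD (bar) of 2 libraries in each of the 4 groups. IL6ST, LIFR, CNTFR and STAT3 lay above 6 CPM per kb in every group, and IL6R, OSMR and the SOCS genes below 2.

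A gene was called upregulated or downregulated where it differed by 1.5-fold or more with an adjusted p below 0.05 in edgeR's quasi-likelihood test, with Benjamini-Hochberg adjustment over the 16680 genes, and every adjusted p below comes from that test unless another is named. Exposure to either chick medium upregulated IL6R, SOCS2 and SOCS3, and exposure to the mouse medium instead upregulated LIFR and downregulated CISH. In E8-cSGcm 3 of 10 genes were upregulated, where 4.73% of all tested genes were upregulated and 3.86% downregulated, and the count was 1 without control replicate 2 and 0 in DESeq2. In E8-cDRGcm 3 of 10 were upregulated and CNTFR was downregulated, where 9.81% of tested genes rose and 10.9% fell. In E15.5-mSGcm 1 of 10 rose and 1 fell, where 6.65% of tested genes rose and 7.27% fell. Without the fold criterion 5, 8 and 5 of the 10 passed, against 31.3%, 49.5% and 37.8% of tested genes. The median log2 fold change of the 10 was 0.12 in E8-cSGcm, 0.29 in E8-cDRGcm and 0.24 in E15.5-mSGcm, and that of all tested genes 0.01, 0.01 and -0.02. The 3 comparisons share the control libraries.

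**Figure D2:**
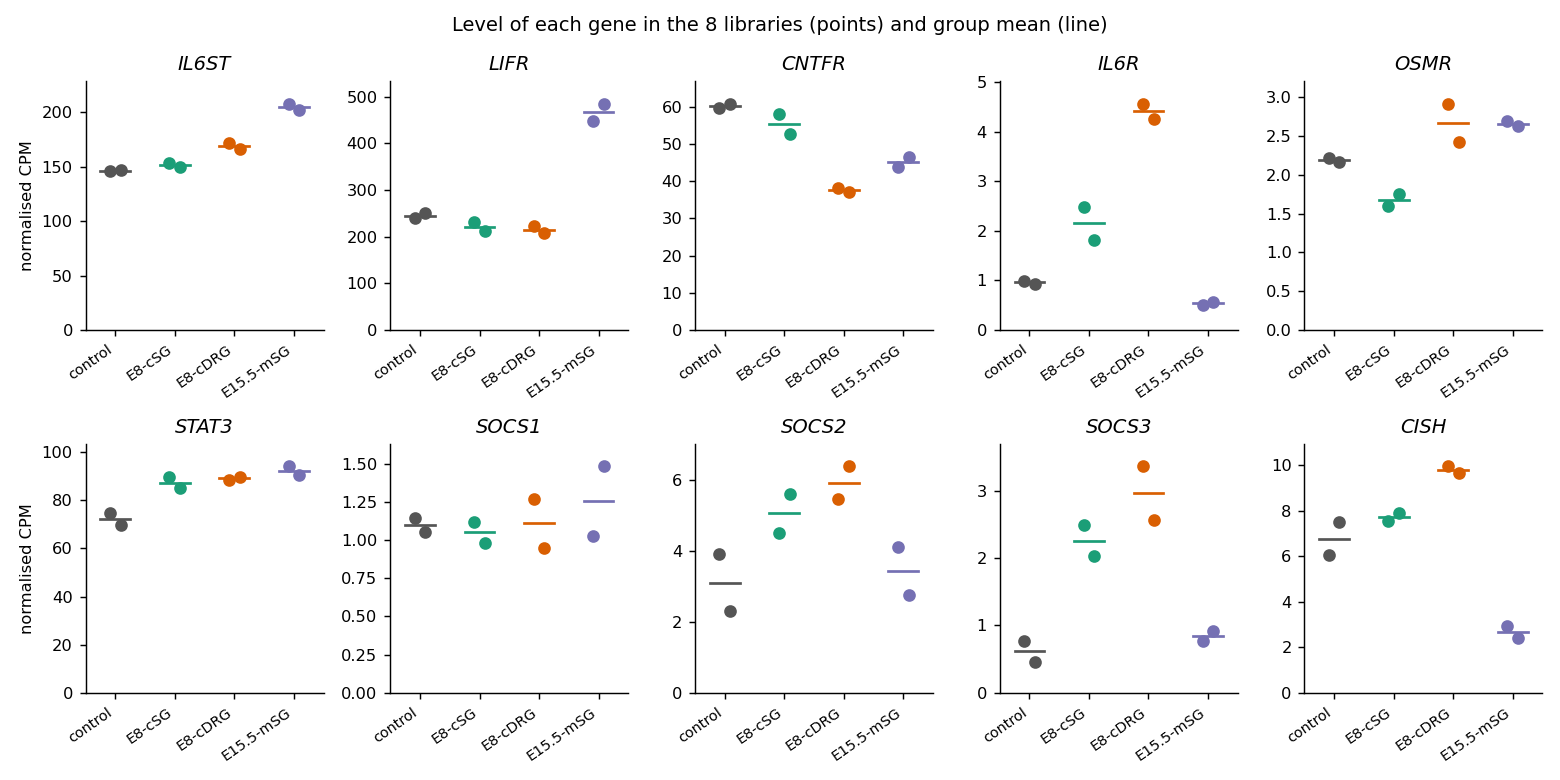
Normalised CPM of each of the 10 genes in each library (points) and the group mean (line), on axes that start at 0. SOCS3 and IL6R were higher in all 4 chick-medium libraries than in control, LIFR was higher and CISH lower in both E15.5-mSGcm libraries than in the other 6.

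IL6ST (ENSG00000134352, chromosome 5, 55230923 to 55290850 in GRCh37, the build of all gene positions here) was read at 146 and 147 CPM in control, 153 and 149.6 in E8-cSGcm, 172 and 166 in E8-cDRGcm, and 208 and 202 in E15.5-mSGcm. Each conditioned group lay above control, with no overlap. The log2 fold change was 0.49 ± 0.05 (SE) in E15.5-mSGcm (edgeR adjusted p = 1.49e-09) and 0.21 ± 0.05 in E8-cDRGcm (edgeR adjusted p = 9.76e-04), both under the fold criterion. In E8-cSGcm it was 0.05 (95% interval -0.06 to 0.16, edgeR adjusted p = 0.507).

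LIFR (ENSG00000113594, chromosome 5, 38474770 to 38608456), the second chain for LIF, CNTF and cardiotrophin, had the largest rise among the 5 receptors in the mouse medium. Its levels were 239 and 251 CPM in control, 231 and 211 in E8-cSGcm, 222 and 208 in E8-cDRGcm, and 448.5 and 485 in E15.5-mSGcm. The E15.5-mSGcm libraries stood far above the other 6, which lay close together. The rise was 1.91-fold over control (log2 0.93 ± 0.05, edgeR adjusted p = 8.25e-17), and the chick media went slightly the other way, with -0.15 in E8-cSGcm (edgeR adjusted p = 0.0325) and -0.19 in E8-cDRGcm (edgeR adjusted p = 0.00372), under the fold criterion. LIFR-AS1, which overlaps LIFR exons on the opposite strand, had 34 to 98 counts against 2843 to 4246 for LIFR, and its log2 fold change in E15.5-mSGcm was -0.09 (edgeR adjusted p = 0.784).

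OSMR (ENSG00000145623, chromosome 5, 38845960 to 38945698), the partner chain for oncostatin M, was low, at 20 to 39 counts per library. It was measured at 2.22 and 2.17 CPM in control, 1.60 and 1.75 in E8-cSGcm, 2.92 and 2.42 in E8-cDRGcm, and 2.69 and 2.63 in E15.5-mSGcm. No comparison with control passed the test, and the 95% interval of the log2 fold change was -0.99 to 0.23 in E8-cSGcm, -0.27 to 0.83 in E8-cDRGcm and -0.34 to 0.89 in E15.5-mSGcm, so changes of this size were not detectable at this depth. OSMR shares exonic bases with RICTOR on the opposite strand, which had 585 to 854 counts, and the strand setting of the counting is not given in the sources used here.

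CNTFR (ENSG00000122756, chromosome 9, 34551430 to 34590138), the chain that binds ciliary neurotrophic factor, fell most in the dorsal root ganglia medium. Levels were 59.6 and 60.9 CPM in control, 58.05 and 52.7 in E8-cSGcm, 38.3 and 37.2 in E8-cDRGcm, and 43.9 and 46.5 in E15.5-mSGcm. The E8-cDRGcm libraries were the lowest, the E15.5-mSGcm libraries next, and the groups did not overlap. The log2 fold change was -0.68 ± 0.07 in E8-cDRGcm (0.626-fold, edgeR adjusted p = 9.34e-10), -0.41 ± 0.08 in E15.5-mSGcm (edgeR adjusted p = 5.24e-05, under the fold criterion) and -0.13 ± 0.07 in E8-cSGcm (edgeR adjusted p = 0.183).

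IL6R (ENSG00000160712, chromosome 1, 154377669 to 154441926), the interleukin-6 binding chain, was counted 13 and 14 times in control, 31 and 26 in E8-cSGcm, 61 and 58 in E8-cDRGcm, and 4 and 5 in E15.5-mSGcm. The 4 groups did not overlap, at 0.994 and 0.921 CPM, 2.49 and 1.82 CPM, 4.56 and 4.25 CPM, and 0.512 and 0.571 CPM. IL6R rose 4.58-fold in E8-cDRGcm (log2 2.19 ± 0.30, edgeR adjusted p = 1.07e-07) and 2.22-fold in E8-cSGcm (log2 1.15 ± 0.34, edgeR adjusted p = 0.00892). In E15.5-mSGcm the log2 fold change was -0.80 (95% interval -1.88 to 0.27, edgeR adjusted p = 0.246), and it turned to 0.21 with all libraries thinned to the smallest total (edgeR adjusted p = 0.864), so at 4 and 5 counts its direction was not settled. The E8-cSGcm call was lost without control replicate 2 (log2 1.09, edgeR adjusted p = 0.0744), without E8-cSGcm replicate 1 (log2 0.93, edgeR adjusted p = 0.104) and in DESeq2 (log2 1.16, adjusted p = 0.0983). IL6 itself had 0 counts in all 8 libraries, below the floor given above.

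STAT3 (ENSG00000168610, chromosome 17, 40465342 to 40540558) was higher by a similar small amount in each medium. It was measured at 74.7 and 69.7 CPM in control, 89.6 and 85.2 in E8-cSGcm, 88.6 and 89.9 in E8-cDRGcm, and 94.2 and 90.7 in E15.5-mSGcm. Every conditioned library lay above both control libraries. Log2 fold changes of 0.28 ± 0.06, 0.31 ± 0.06 and 0.36 ± 0.06 passed the adjusted p in E8-cSGcm, E8-cDRGcm and E15.5-mSGcm (edgeR adjusted p = 6.05e-04, 7.09e-05 and 2.90e-05), and each was under the fold criterion. Between media the 95% interval was -0.15 to 0.09 for E8-cSGcm against E8-cDRGcm and -0.05 to 0.21 for E15.5-mSGcm against E8-cSGcm. These are transcript levels, and STAT3 phosphorylation was not measured in these libraries.

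SOCS3 (ENSG00000184557, chromosome 17, 76352859 to 76356158), the inhibitor that docks on gp130, showed the largest fold change of the 10 in either chick medium, with IL6R close to it in E8-cDRGcm. It was counted 10 and 7 times in control, 31 and 29 in E8-cSGcm, 45 and 35 in E8-cDRGcm, and 6 and 8 in E15.5-mSGcm. In CPM these were 0.765 and 0.460, 2.49 and 2.03, 3.37 and 2.56, and 0.769 and 0.914, so that all chick-medium libraries lay above every control and mouse-medium library. SOCS3 rose 3.69-fold in E8-cSGcm (log2 1.88 ± 0.39, edgeR adjusted p = 2.52e-04) and 4.86-fold in E8-cDRGcm (log2 2.28 ± 0.37, edgeR adjusted p = 2.71e-06). Control alone was too low to pass the filter on low counts, and with a filter of 1 count in total both calls held (edgeR adjusted p = 7.16e-05 and 5.27e-08). In E15.5-mSGcm the log2 fold change was 0.48 with a 95% interval of -0.61 to 1.57 (edgeR adjusted p = 0.521). DESeq2 gave SOCS3 a log2 fold change of 1.89 in E8-cSGcm but no adjusted p, because its filter on mean counts left the gene out, and without that filter its adjusted p was 0.0250.

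SOCS2 (ENSG00000120833, chromosome 12, 93963590 to 93977263) was counted 51 and 35 times in control, 56 and 80 in E8-cSGcm, 73 and 87 in E8-cDRGcm, and 32 and 24 in E15.5-mSGcm. The control libraries were far apart, at 3.90 and 2.30 CPM, while E8-cSGcm was at 4.49 and 5.60, E8-cDRGcm at 5.46 and 6.37, and E15.5-mSGcm at 4.10 and 2.74. The chick media lay above control and the mouse medium overlapped it. The rise was 1.66-fold in E8-cSGcm (log2 0.73 ± 0.24, edgeR adjusted p = 0.0162) and 1.94-fold in E8-cDRGcm (log2 0.95 ± 0.23, edgeR adjusted p = 7.05e-04). Both calls rested on control replicate 2, without which they were 0.38 (edgeR adjusted p = 0.362) and 0.60 (edgeR adjusted p = 0.0687). The E8-cDRGcm call was also lost in DESeq2 without independent filtering (log2 0.94, DESeq2 adjusted p = 0.0549). The E8-cSGcm call was also lost without E8-cSGcm replicate 2 (log2 0.56, edgeR adjusted p = 0.188), in libraries thinned to the smallest total (log2 0.42, edgeR adjusted p = 0.334) and in DESeq2 (log2 0.71, adjusted p = 0.156). SOCS2-AS1, which overlaps SOCS2 exons on the opposite strand, had 5 to 18 counts against 24 to 87 for SOCS2. Its log2 fold changes were 0.65 in E8-cSGcm, 0.84 in E8-cDRGcm and 0.59 in E15.5-mSGcm (edgeR adjusted p = 0.331, 0.145 and 0.430). Without the strand setting of the counting, reads of the pair cannot be told apart.

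CISH (ENSG00000114737, chromosome 3, 50643920 to 50649205) fell in the mouse medium. It was counted 79 and 114 times in control, 94 and 113 in E8-cSGcm, 133 and 132 in E8-cDRGcm, and 23 and 21 in E15.5-mSGcm. In CPM this was 6.04 and 7.50, 7.54 and 7.91, 9.95 and 9.67, and 2.95 and 2.40, with both E15.5-mSGcm libraries below the other 6. The log2 fold change in E15.5-mSGcm was -1.35 ± 0.23 (0.391-fold, edgeR adjusted p = 1.47e-05). In E8-cDRGcm it was 0.53 ± 0.16 (edgeR adjusted p = 0.00599, under the fold criterion) and in E8-cSGcm 0.18 (edgeR adjusted p = 0.439). CISH shares exonic bases with MAPKAPK3 on the opposite strand, which had 302 to 1014 counts and fell as well in E15.5-mSGcm, with a log2 fold change of -0.72 ± 0.08 (edgeR adjusted p = 7.35e-10), and without the strand setting of the counting reads of the pair cannot be told apart.

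SOCS1 (ENSG00000185338, chromosome 16, 11348274 to 11350061), which inhibits JAK kinases directly, had 8 to 17 counts per library. Its levels of 1.15 and 1.05 CPM in control, 1.12 and 0.980 in E8-cSGcm, 1.27 and 0.952 in E8-cDRGcm, and 1.03 and 1.49 in E15.5-mSGcm overlapped between groups. The 95% intervals of the log2 fold change ran from -0.91 to 0.78, -0.81 to 0.85 and -0.70 to 1.11 in the 3 media.

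**Figure D3:**
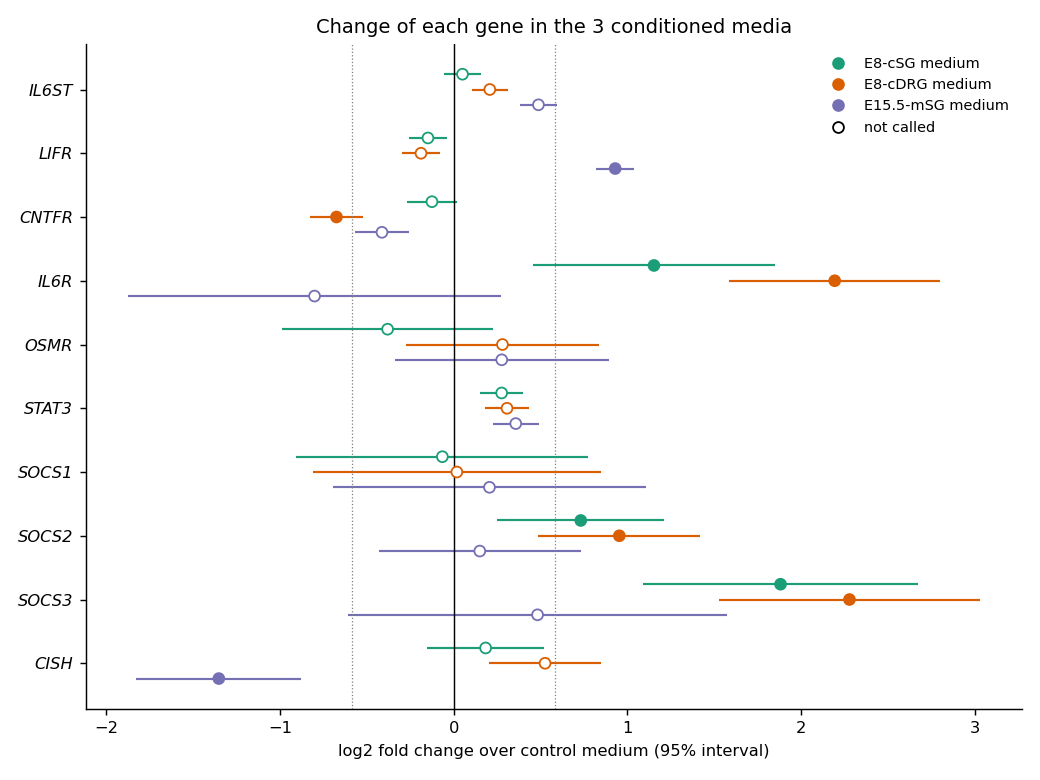
Log2 fold change over control medium (point) with its 95% interval (bar) for each gene in the 3 conditioned media. Filled points passed both criteria and dotted lines mark the 1.5-fold criterion. SOCS3 and IL6R lay to the right in the chick media, LIFR to the right and CISH to the left in E15.5-mSGcm.

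The differences between media were tested directly. Between the 2 sympathetic media, 4 of 10 genes were called, where 22.3% of tested genes were, and the E15.5-mSGcm libraries were higher in LIFR (log2 1.08 ± 0.05, edgeR adjusted p = 8.05e-19) and lower in IL6R (-1.95 ± 0.45, edgeR adjusted p = 4.53e-04), SOCS3 (-1.40 ± 0.42, edgeR adjusted p = 0.00547) and CISH (-1.54 ± 0.23, edgeR adjusted p = 7.19e-07). The SOCS3 difference did not pass in DESeq2 (log2 -1.41, adjusted p = 0.0641). Against E8-cDRGcm, 5 of 10 were called in E15.5-mSGcm, where 26.2% of tested genes were, with LIFR higher by 1.12 ± 0.05 (edgeR adjusted p = 1.28e-19). IL6R (-3.00 ± 0.39), SOCS3 (-1.80 ± 0.40), CISH (-1.88 ± 0.22) and SOCS2 (-0.80 ± 0.26) were lower, with edgeR adjusted p = 4.20e-08, 2.35e-04, 3.58e-09 and 0.00810. The SOCS2 call was lost without E8-cDRGcm replicate 2 (log2 -0.70, edgeR adjusted p = 0.0669), without E15.5-mSGcm replicate 2 (log2 -0.54, edgeR adjusted p = 0.180) and in DESeq2 (adjusted p = 0.0817).

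Between the chick media, sympathetic against dorsal root ganglia, 1 of 10 genes was called, where 7.49% of tested genes were. IL6R was lower in E8-cSGcm than in E8-cDRGcm by a log2 difference of -1.04 ± 0.26 (edgeR adjusted p = 0.00193), a call lost without E8-cSGcm replicate 2 (log2 -0.82, edgeR adjusted p = 0.0617) and in DESeq2 (adjusted p = 0.0941). CNTFR was higher in E8-cSGcm by 0.55 ± 0.08 (edgeR adjusted p = 4.23e-07), just under the fold criterion. For SOCS3 and SOCS2 the 95% intervals were -0.98 to 0.19 and -0.65 to 0.21.

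Promoter letters were examined for all 10 genes, called or not. STAT dimers are known to bind the pattern TTCNNNGAA, which reads the same on both strands. RefSeq windows (GRCh38.p14, 250 bases before to 50 after a start) were found for 9 of the 10 genes, 12 windows in all. The pattern was in 3 of the 12 windows and in 7.66% of all 35116 windows. The CISH window held 4 copies, starting 241, 230, 129 and 112 bases before the start, and 0.0199% of all windows, 7 in number, held at least 4. LIFR had 1 copy in each of 2 windows of its alternative starts, 182 and 165 bases before the start. Its remaining window, at chr5:38556597-38556896, held 0 copies. The stretches that hold the copies are given on the minus strand, read 5′ to 3′, with the pattern in capitals, at chr3:50611862-50612024, chr5:38557625-38557665 and chr5:38595546-38595586.
CISH: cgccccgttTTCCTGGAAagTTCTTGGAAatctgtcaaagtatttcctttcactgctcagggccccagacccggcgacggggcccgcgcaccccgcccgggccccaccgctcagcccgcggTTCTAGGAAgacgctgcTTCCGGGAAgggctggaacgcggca
LIFR, first of the pair: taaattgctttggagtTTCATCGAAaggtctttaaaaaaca
LIFR, second of the pair: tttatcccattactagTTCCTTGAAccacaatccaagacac
A match describes letters in these windows and is no evidence of binding. SOCS3, IL6R, CNTFR, IL6ST, OSMR, STAT3 and SOCS1 had no match in their windows, which says only that these letters were not there. No window was found for SOCS2.

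The ligand genes of the pathway were low in the aggregates, and IL11 in E8-cDRGcm was the exception, at 17.0 ± 0.302 CPM (SD, n = 2). Of 10 ligand genes 5 passed the filter on low counts, and IL6, OSM and IL27 had 0 counts in all libraries. IL11, an interleukin that signals through gp130 and IL11RA, was counted 5 and 8 times in control, 11 and 25 in E8-cSGcm, 230 and 229 in E8-cDRGcm, and 0 and 3 in E15.5-mSGcm. The E8-cDRGcm libraries stood far above all others. Its log2 fold change was 5.18 ± 0.28 in E8-cDRGcm and 1.53 ± 0.47 in E8-cSGcm. With so few counts in control and E15.5-mSGcm, IL11 passed the filter on low counts through the chick-medium groups, where it was high. Its adjusted p is therefore not given. CTF1, cardiotrophin 1, rose in E15.5-mSGcm (1.29 ± 0.45, edgeR adjusted p = 0.0209) from 11 and 9 counts to 12 and 17 counts in smaller libraries.

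Receptors, kinases and inhibitors beside the 10 genes changed in single cases, and the shares of all tested genes called in E8-cDRGcm (9.81% up and 10.9% down) stand beside the counts that follow. IL27RA rose by 1.00 ± 0.18 in E8-cDRGcm and 1.11 ± 0.20 in E15.5-mSGcm (edgeR adjusted p = 1.92e-05 and 2.12e-05), and IL11RA fell in E15.5-mSGcm (-0.97 ± 0.19, edgeR adjusted p = 1.26e-04). In E8-cDRGcm JAK1 rose by 0.71 ± 0.05 (1 of 3 JAK genes tested), STAT5B by 0.72 ± 0.11, and STAT6 changed by -0.73 ± 0.09 (2 of 5 other STATs tested). PIAS3, an inhibitor of STAT3, rose by 0.63 ± 0.10 in E8-cDRGcm (1 of 7 PIAS and phosphatase genes tested). SOCS4 changed in the direction opposite to SOCS3 in the chick media, with -0.71 ± 0.06 in E8-cSGcm (edgeR adjusted p = 7.67e-12), -1.07 ± 0.06 in E8-cDRGcm (edgeR adjusted p = 3.67e-17) and 0.05 ± 0.06 in E15.5-mSGcm (edgeR adjusted p = 0.560).

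Among 28 genes known as gp130 and STAT3 targets, 18 were tested. In E8-cSGcm 3 rose and 1 fell (4.73% and 3.86% of all tested genes), in E8-cDRGcm 8 rose and 1 fell (9.81% and 10.9%), and in E15.5-mSGcm 7 rose (6.65%). The list median was 0.22, 0.64 and 0.71 (log2), and that of all tested genes 0.01, 0.01 and -0.02. BCL6, a transcriptional repressor, rose in all 3 media (0.79 ± 0.14, 1.47 ± 0.13 and 2.38 ± 0.12), as did ZFP36, which destabilises cytokine mRNAs (0.80 ± 0.17, 1.76 ± 0.15 and 1.22 ± 0.18). CCND1, cyclin D1, went the other way (-1.32 ± 0.05, -2.02 ± 0.05 and -0.58 ± 0.05, the last under the fold criterion). TNFAIP3, also a target of NF-kB, had 1 and 0 counts in control and 11 and 29 in E15.5-mSGcm. It is 1 of the 7 genes that rose there, but at 0 to 3 counts in the other 6 libraries it passed the filter on low counts through that group alone, so its test is not given. Of 8 genes known as STAT5 targets, which include SOCS2 and CISH, 5 were tested, and 2 rose in each chick medium (SOCS2 and PIM1) and 1 fell in E15.5-mSGcm (CISH). PIM1, a kinase in both target lists, rose by 1.08 ± 0.12 in E8-cSGcm and 1.43 ± 0.12 in E8-cDRGcm (edgeR adjusted p = 1.45e-08 and 2.85e-12), with 0.27 ± 0.15 in E15.5-mSGcm (edgeR adjusted p = 0.161), and its log2 difference between E15.5-mSGcm and E8-cSGcm was -0.81 ± 0.13 (edgeR adjusted p = 4.16e-06).

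**Figure D4:**
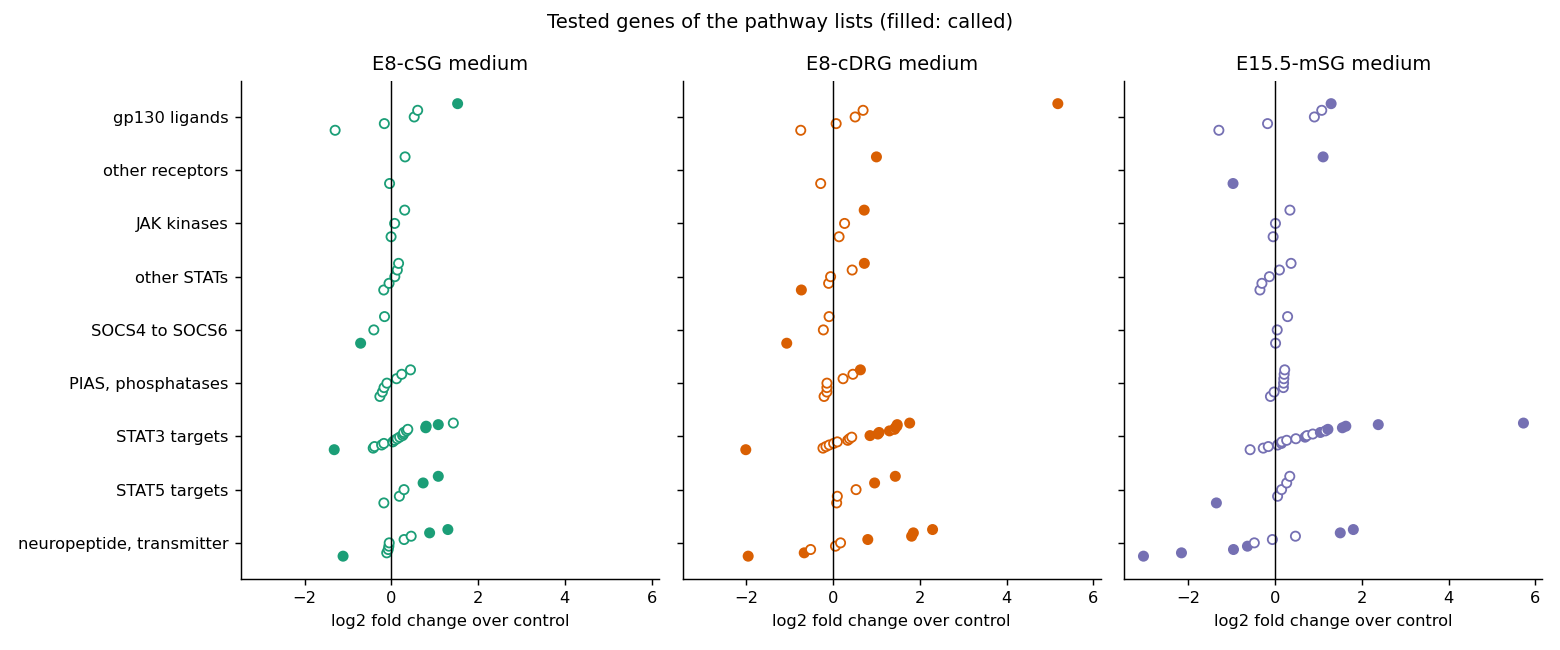
Log2 fold change over control of each tested gene of the 9 pathway lists in each conditioned medium, with called genes filled. IL11 is the far point of the ligand line in E8-cDRGcm, and TNFAIP3 that of the STAT3 targets in E15.5-mSGcm.

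Of 10 neuropeptide and transmitter genes that neuropoietic cytokines are known to change, 9 were tested, with 2 up and 1 down in E8-cSGcm, 4 up and 2 down in E8-cDRGcm, and 2 up and 4 down in E15.5-mSGcm. The shares of all tested genes were 4.73% up and 3.86% down, 9.81% and 10.9%, and 6.65% and 7.27%. The list mixes genes that such cytokines raise and genes that they lower, so a change in it has no single direction. NPY, neuropeptide Y, rose in each medium (1.30 ± 0.11, 2.29 ± 0.10 and 1.80 ± 0.11), and whether a cytokine moved it was not tested. TH, the first enzyme of catecholamine synthesis, fell in E15.5-mSGcm (-3.03 ± 0.28, edgeR adjusted p = 2.27e-11) from 116 and 138 counts in control to 9 and 9. DBH, the enzyme that makes noradrenaline, fell in the chick media (-1.11 ± 0.09 and -1.96 ± 0.11) and was at 0.47 ± 0.09 in E15.5-mSGcm, under the fold criterion. SLC5A7, the choline transporter, fell in E15.5-mSGcm (-2.16 ± 0.16, edgeR adjusted p = 1.05e-13). The other called genes of the list were SST, SLC18A3 and CHAT. SST rose in E8-cDRGcm (0.80 ± 0.14) and fell in E15.5-mSGcm (-0.64 ± 0.19). SLC18A3 fell in both (-0.67 ± 0.21 and -0.96 ± 0.25). CHAT is 1 of the 4 that rose in E8-cDRGcm, with 25 and 17 counts there. At 2 to 8 counts in the other libraries, its test is not given.

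The genes whose level followed SOCS3 most closely over the 8 libraries were NCAM1 (Pearson r = 0.985), THBS2 (0.983), BLVRB (0.983), PIM1 (0.982) and EPRS1 (0.982). PIM1 stood at 12.4, 26.2, 33.3 and 14.8 CPM in control, E8-cSGcm, E8-cDRGcm and E15.5-mSGcm, and BLVRB at 6.98, 17.2, 20.7 and 7.56 CPM. For IL6ST the closest were ZBTB21 (r = 0.992), RBM26 (0.989), LINC03051 (0.987), PARD3B (0.986) and RSPO3 (0.986). ZBTB21 went from 61.3 CPM in control to 91.5 in E15.5-mSGcm. RSPO3 was at 0.246 CPM in control, near the floor given above, and at 3.56 CPM in E15.5-mSGcm, so its pattern rests on few counts. The 8 points are 4 groups of 2 that share medium and depth, so these coefficients only describe the patterns.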

How the data were processed

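IGR-N91 aggregates in 4 groups of 2 libraries were sequenced from 50 ng of total RNA as single reads of 75 bp with a stranded kit. The authors trimmed reads (cutadapt 1.9.1), mapped them (TopHat2 2.1.0), counted them per Ensembl gene (HTSeq 0.11.3) and deposited raw counts, without normalisation. The build is hg19 in the study's methods and hg38 in the submitters' processing notes, and the strand setting and annotation release are not given in the sources used here. Positions and exon lengths came from GENCODE 44 on GRCh37, which matched 58611 identifiers. Every library's group came from its label.

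Counts were scaled by TMM, filtered by group and tested with edgeR 4.0.16 (robust quasi-likelihood, 1 model of 8 libraries, R 4.3.3). Steps were tested on simulated data. Alternatives were DESeq2 1.42.0, RLE scaling, other filters, fewer libraries, adjusted p alone, a replicate block and leaving out each library. DESeq2 without independent filtering and thinning to 7930765 counts were added after seeing the data. The genes and lists were chosen with earlier results of these data known. Named genes are the 10 members, up to 4 per list with the largest called change whose libraries did not overlap control, and the 5 closest in pattern to SOCS3 and IL6ST. The remaining called genes of the neuropeptide and transmitter list are named as well. Likeness used log2 CPM with a prior count of 2. Figures were drawn with matplotlib 3.10.9.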

Additional observations from a re-analysis of the deposited data

Results flagged for a closer look

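The conditioned media differed from each other in 10 gene values, each by a test of the difference between the media themselves (edgeR adjusted p below 0.05, with a difference of 1.5-fold or more). LIFR was higher in E15.5-mSGcm than in E8-cSGcm by 1.08 and than in E8-cDRGcm by 1.12 on the log2 scale. IL6R differed by -1.95 and -3.00 in the same comparisons, and by -1.04 between E8-cSGcm and E8-cDRGcm. SOCS3 differed by -1.40 and -1.80, CISH by -1.54 and -1.88, and SOCS2 by -0.80 between E15.5-mSGcm and E8-cDRGcm. Cases that were lost without 1 library or in DESeq2 are named with the results above.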

How the results depend on the processing

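Of 19 calls among the 10 genes, 13 kept their call in every alternative that gave an adjusted p, and no call reversed. Genes called in E8-cSGcm against control went from 3 to 0 in DESeq2, which left SOCS3 and SOCS1 without an adjusted p there, to 1 in DESeq2 without independent filtering, and to 1 to 3 with each library left out (1 without control replicate 2). Between E8-cSGcm and E8-cDRGcm the count of 1, for IL6R, became 0 in DESeq2, with and without independent filtering, and 2 in thinned libraries. Without E8-cSGcm replicate 2 the IL6R call was lost (log2 -0.82), so the count alone does not follow that gene. The cause of these shifts was not tested. A filter of at least 10 counts in every library removes the lowest genes from the test by construction, and left 1, 2 and 0 called genes in E8-cSGcm and E8-cDRGcm against control and E8-cSGcm against E8-cDRGcm, and 2 and 3 in E15.5-mSGcm against E8-cSGcm and E8-cDRGcm. By adjusted p alone 5, 8 and 5 genes passed against control and 3 between the chick media. Of 53 tested pathway genes, 20 and 29 passed in E8-cSGcm and E15.5-mSGcm in place of 9 and 16. Of all tested genes, 31.3% and 37.8% passed there by adjusted p alone. With each library left out, called genes numbered 4 in E8-cDRGcm and 2 in E15.5-mSGcm against control, and 4 to 5 in both comparisons of E15.5-mSGcm with a chick medium. Called pathway genes numbered 8 to 9, 20 to 23 and 16 to 18 against control, with 53 tested in the main fit. In that fit 4.73% of all tested genes rose and 3.86% fell in E8-cSGcm, 9.81% and 10.9% in E8-cDRGcm, and 6.65% and 7.27% in E15.5-mSGcm.

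Signs turned for 5 values that were not called. IL6R in E15.5-mSGcm was 0.21 (log2) in thinned libraries. SOCS1 in E8-cSGcm was 0.44 thinned and -0.16 to 0.034 with each library left out (0.034 without E8-cSGcm replicate 2). In E8-cDRGcm it was -0.26 thinned and -0.20 to 0.21 with each library left out (-0.047 without control replicate 2, -0.20 without E8-cDRGcm replicate 1), and in E15.5-mSGcm -0.10 to 0.43 (-0.10 without E15.5-mSGcm replicate 2). SOCS2 in E15.5-mSGcm was -0.054 thinned and -0.21 to 0.55 with each library left out (-0.21 without control replicate 2, -0.16 without E15.5-mSGcm replicate 1). Same-numbered libraries did not deviate together (correlations of -0.0437 to 0.042 over 6 pairs of groups), and the replicate block gave 3, 4 and 2 called genes against control, as without it. With libraries thinned to the smallest total, the call of SOCS2 in E8-cSGcm was lost (0.42, edgeR adjusted p = 0.334).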
